A study of Mus musculus with 6 samples.

Results

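The 38 genes described here encode the subunits, assembly chaperones and activators of the constitutive proteasome: Psma1 to Psma7, Psmb1 to Psmb7, Psmc1 to Psmc6, Psmd1 to Psmd14 and Psme1 to Psme4. They were chosen by symbol alone from a table of 32544 genes, and every one of the 38 was found. The libraries measured polyadenylated RNA of kidney proximal tubules, S2 and S3 segments, dissected by hand from C57Bl/6 mice that the design text calls controls and for which it names no altered allele. The AA group had received a single injection of aristolochic acid I, a plant nephrotoxin that forms adducts on DNA, at 3 mg/kg, and the DMSO group an injection of dimethyl sulfoxide, the solvent. Kidneys of both groups were taken 24 h later, with 3 libraries per group and 5 to 10 tubules pooled per kidney. The labels give neither age nor sex, nor whether each library is from its own animal, so that p-values measure only the spread between these libraries.

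The proteasome is the barrel-shaped protease that degrades proteins tagged with ubiquitin. Its core particle is a stack of alpha and beta rings whose catalytic sites face an inner chamber. The regulatory particle on either end has a base, with ATPases that unfold substrates, and a lid, which removes the ubiquitin chain, while other activators can take its place. Damage to proteins and oxidative stress are known to raise proteasome genes through the transcription factors NFE2L1 and NFE2L2, and the p53 pathway depends on proteasomal turnover of p53 itself.

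Of the 38 genes, 11 rose in AA, 0 fell and 27 did not pass the test (limma's moderated test, Benjamini-Hochberg adjusted p under 0.05 over all 14311 tested genes). The genes that rose were Psma1 and Psma7 of the alpha ring, Psmb5 of the beta ring, Psmc1, Psmd2 and Psmd4 of the base, Psmd7, Psmd8 and Psmd11 of the lid, the chaperone Psmd10 and the activator Psme3. The share that rose was 28.9%, against 22.3% of all tested genes, which is near the background. The share that fell in all tested genes was 8.66%. No count of members is therefore read as a response of the proteasome as a whole.

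The changes were modest in size. The median log2 fold change (here also log2 change) of the 38 genes, on the log2(CPM + 1) scale, was 0.37, and that of all tested genes was 0.21. Members ran from -0.41 for Psmd9 to 0.92 for Psmd10, and their middle 50% lay between 0.10 and 0.49, against -0.14 and 0.56 for all tested genes. The log2 fold change was above 0 in 33 members (86.8%) and in 65.9% of all tested genes. The groups were fully apart in 20 members that were higher in AA and in 1 that was lower, where the background was 33.4% and 13% of tested genes.

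**Figure D1:**
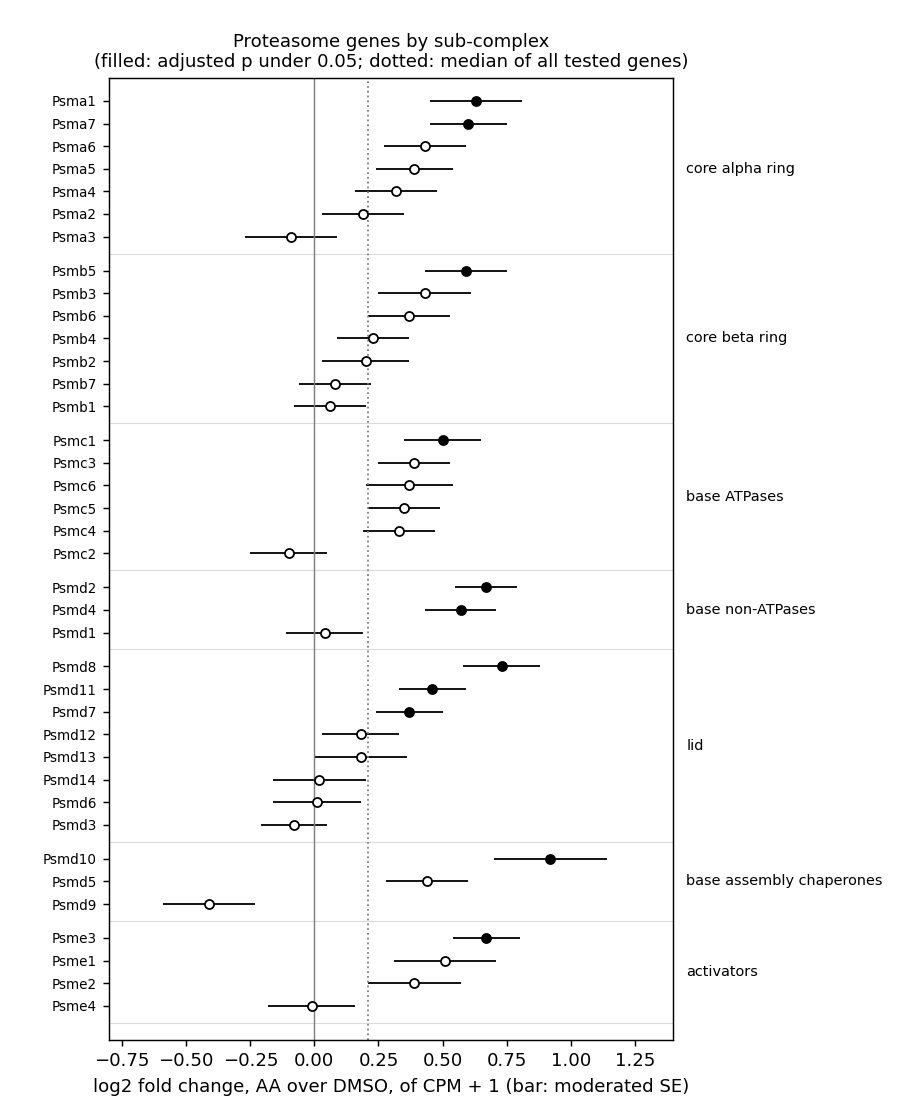
Log2 fold change of each of the 38 genes in AA over DMSO (x axis, log2 of CPM + 1, with its moderated standard error), grouped by sub-complex. The 11 filled points passed the test, and within most sub-complexes points near 0 stand beside points above 0.5, while the dotted line marks the median of all tested genes at 0.21.

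Depth differed between the groups, from 15958557 to 31136251 reads per library in DMSO and from 13304877 to 17815915 in AA. The lowest count of any member in any library was 193 reads. The summed level of 10 proximal tubule markers was 14504 to 19256 CPM in DMSO and 7555 to 9136 CPM in AA, with Lrp2 the largest part. None of these markers was at 0 in all libraries, which held for the other marker lists too and so does not show the tissue. Their summed level was above that of each other marker list in every library of both groups, though the lists differ in length. They did not all move together: 4 were lower in AA (Lrp2, Cubn, Slc22a30 and Acy3), 1 was higher (Slc5a2) and the others did not pass. In bulk tissue, fewer cells of a type and less RNA per cell cannot be told apart. The summed level of 6 markers of the thick limb and distal nephron was 235 to 527 CPM in DMSO and 356, 1399 and 780 CPM in AA replicates 1, 2 and 3. AA replicate 2 was also the AA library with the highest value for 31 of the 38 proteasome genes (81.6%), against 40.0% of all tested genes. Markers of fibroblasts and mesangium had a summed level of 56.1 to 91.8 CPM in DMSO and 114 to 130 CPM in AA, with 2 of 4 higher (Pdgfrb and Dcn). Endothelial markers had 122 to 198 CPM in DMSO and 197 to 230 CPM in AA, with 2 of 5 higher (Pecam1 and Cdh5), and none of these markers was at 0 in all libraries. The part of the distal, fibroblast and endothelial markers in the proteasome result was not tested. Without AA replicate 2 only Psmd2, Psmd4, Psmd8 and Psme3 passed, 4 genes where the background was 12.2%.

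Shifts of whole sub-complexes are given as the median difference of their members from the DMSO mean, in log2(CPM + 1). The core particle stood at 0.17, 0.51 and 0.28 in AA replicates 1, 2 and 3, and between -0.15 and 0.11 in the DMSO libraries. The base stood at 0.30, 0.51 and 0.41, and its DMSO libraries lay between -0.16 and 0.05. The lid stood at 0.13, 0.37 and 0.09, with DMSO libraries from -0.08 to 0.06. In all 3 sub-complexes every AA library was above every DMSO library, and the margin was smallest in the lid. The same held for all tested genes, with shifts of 0.13, 0.26 and 0.23 in the same AA libraries and -0.07 to 0.07 in DMSO. Only the part beyond these values is relative to the transcriptome. In AA replicates 1 and 3 the lid stood at 0.13 and 0.09, where all tested genes stood at 0.13 and 0.23.

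**Figure D2:**
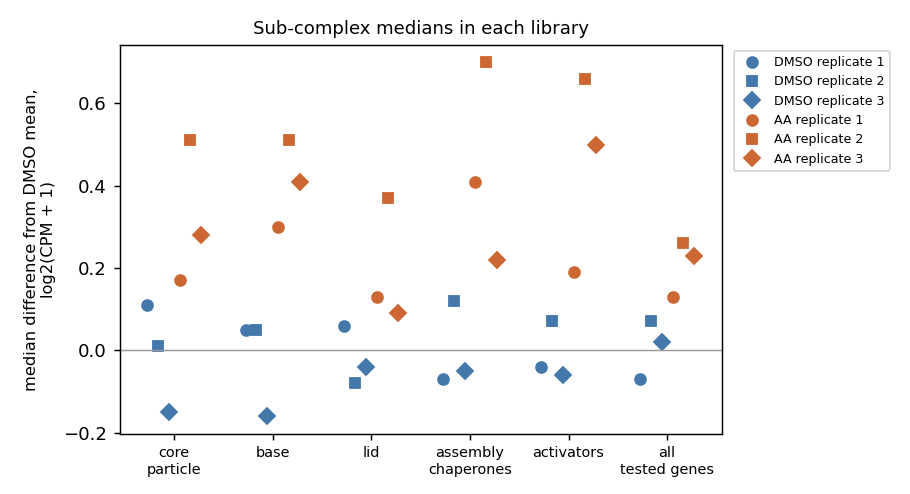
Median difference from the DMSO mean, in log2(CPM + 1), of the members of each sub-complex in each library (blue DMSO, orange AA; circle, square and diamond for replicates 1, 2 and 3), with all tested genes at the right. AA replicate 2 is the highest library in each column, at 0.51 for the core particle and 0.70 for the assembly chaperones.

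By sub-complex, the median log2 fold change was 0.34 for the 14 genes of the core particle, 0.37 for the 9 genes of the base, 0.18 for the 8 genes of the lid, 0.44 for the 3 assembly chaperones and 0.45 for the 4 activators. Relative to the median of all tested genes these were 0.14, 0.16, -0.03, 0.24 and 0.24. In the same order, 3, 3, 3, 1 and 1 members rose. These were 21.4%, 33.3%, 37.5%, 33.3% and 25%, against 22.3% of all tested genes, and each share rests on few genes. When library medians were equalised the median of the lid was -0.08 and that of the core particle 0.08. No test was made of the differences between sub-complexes.

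Promoters of selected members are shown because NFE2L1 and NFE2L2 bind the antioxidant response element, whose core is TGACNNNGC. That of Psmd10, the member with the highest log2 fold change, is not among those printed. RefSeq promoters (GRCm38.p6, 250 bases before to 50 after the start) were found for 32 of the 38 genes, 35 promoters in all. There was no entry for Psmb1, Psmb2, Psmb7, Psmc3, Psmd3 and Psmd7. The 100 bases before the start are printed 5′ to 3′ on the gene's strand, with TGACNNNGC or CCAAT on either strand in capitals. Psmb5 and Psmb6 encode catalytic subunits, Psmd9 had the lowest log2 fold change, and Psmd8, Psmd2 and Psme3 were among the genes that rose most. The GENCODE models of Psmb5 and Psmd8 begin slightly upstream of the RefSeq start. The principal transcript of Psmd9 begins at the RefSeq start, and a non-coding transcript of the same gene begins far upstream of it.
Psmb5 (chr14:54617996-54618095, minus strand): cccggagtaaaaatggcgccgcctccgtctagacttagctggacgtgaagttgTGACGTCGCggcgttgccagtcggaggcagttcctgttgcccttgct
Psmb6 (chr11:70525257-70525356, plus strand): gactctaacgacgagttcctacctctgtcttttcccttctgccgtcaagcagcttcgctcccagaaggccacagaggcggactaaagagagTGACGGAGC
Psmd9 (chr5:123228090-123228189, plus strand): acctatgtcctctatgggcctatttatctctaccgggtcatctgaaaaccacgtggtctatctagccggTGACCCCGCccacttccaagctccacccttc
Psmd8 (chr7:29180674-29180773, minus strand): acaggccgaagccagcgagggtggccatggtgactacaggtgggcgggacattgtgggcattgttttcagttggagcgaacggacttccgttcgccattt
Psmd2 (chr16:20651552-20651651, plus strand): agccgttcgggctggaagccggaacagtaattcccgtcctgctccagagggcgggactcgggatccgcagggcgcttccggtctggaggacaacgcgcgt
Psme3 (chr11:101316113-101316212, plus strand): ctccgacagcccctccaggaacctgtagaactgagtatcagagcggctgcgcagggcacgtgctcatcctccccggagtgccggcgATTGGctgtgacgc

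TGACNNNGC was found on either strand in 6 of the 35 member promoters (17.1%) and in 12.4% of all 32851 promoters. It began 47 bases before the start in Psmb5, 31 in Psmd9 and 9 in Psmb6, lay 227 and 247 bases before it in Psmc6 and Psmd12, and crossed the start in Psme4. These 6 genes had log2 fold changes of 0.59 (Psmb5), 0.37 (Psmb6 and Psmc6), 0.18 (Psmd12), -0.01 (Psme4) and -0.41 (Psmd9). Psmd9 was the lowest of all members, while the highest, Psmd10 (0.92), had no match. Among the genes that rose, Psmd2, Psmd8 and Psme3 had no match in this window. CCAAT, the box bound by NF-Y, was on either strand in 12 member promoters (34.3%, against 37.4% of all). A match describes letters only and is not evidence of binding.

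The alpha ring closes the core particle and is the surface on which activators dock. Psma1 had 71.9, 51.8 and 56.8 CPM in DMSO and 74.9, 114 and 93.9 CPM in AA, a log2 change of 0.63 with an SE of 0.18 (adjusted p = 0.0227). Its lowest AA library was only just above its highest DMSO library. Psma7 had 63.0, 53.5 and 49.8 CPM in DMSO and 74.4, 91.4 and 86.7 CPM in AA, a log2 change of 0.60 with an SE of 0.15 (adjusted p = 0.0117), with a clear gap between the groups. Psma5 and Psma6 also had all AA libraries above all DMSO libraries, with log2 fold changes of 0.39 and 0.43, and did not pass (adjusted p = 0.0688 and 0.0623). Psma4 and Psma2 had log2 fold changes of 0.32 and 0.19, with overlapping groups. At the other end, Psma3 had 87.5, 65.6 and 61.7 CPM in DMSO and 61.9, 80.6 and 58.1 CPM in AA, a log2 change of -0.09 with an SE of 0.18 (adjusted p = 0.713).

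The beta ring holds the active sites, in Psmb5 (chymotrypsin-like), Psmb6 (caspase-like) and Psmb7 (trypsin-like). Psmb5, the subunit targeted by the drug bortezomib, had 70.7, 85.8 and 58.6 CPM in DMSO and 94.3, 118 and 110 CPM in AA, a log2 change of 0.59 with an SE of 0.16 (adjusted p = 0.0200). Its groups did not overlap. Psmb6 had 48.7, 61.0 and 44.0 CPM in DMSO and 58.8, 76.3 and 63.4 CPM in AA, a log2 change of 0.37 with an SE of 0.16 (adjusted p = 0.110), and its groups overlapped through DMSO replicate 2. Psmb7 had 87.5, 79.2 and 69.6 CPM in DMSO and 79.1, 93.5 and 77.3 CPM in AA, a log2 change of 0.08 with an SE of 0.14 (adjusted p = 0.702). The 3 catalytic genes thus had log2 fold changes of 0.59, 0.37 and 0.08, and the differences between them were not tested. The structural subunits Psmb3, Psmb4, Psmb2 and Psmb1 had log2 fold changes of 0.43, 0.23, 0.20 and 0.06, and none of them passed. Psmb1, the lowest, had 81.6, 77.9 and 74.5 CPM in DMSO and 71.0, 90.8 and 83.1 CPM in AA.

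**Figure D3:**
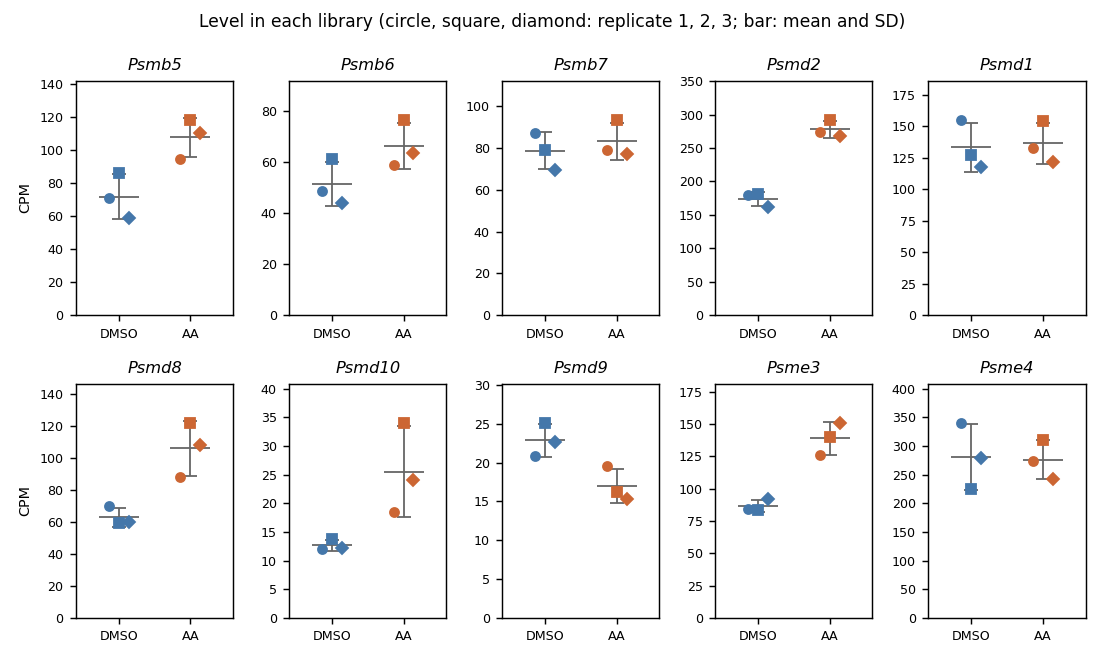
Level in CPM (y axis from 0) of 10 proteasome genes in each library, with circle, square and diamond for replicates 1, 2 and 3 and the bar for mean and SD of 3 libraries. Psmd2, Psmd8 and Psme3 are separated between DMSO and AA, Psmd9 lies lower in AA, and Psmb7, Psmd1 and Psme4 overlap.

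In the base, ATPases form a ring that pulls substrates into the core. Psmc1, whose tail helps to open the gate of the alpha ring, had 64.7, 58.4 and 56.4 CPM in DMSO and 74.8, 100 and 81.8 CPM in AA, a log2 change of 0.50 with an SE of 0.15 (adjusted p = 0.0258). Psmc2, an ATPase of the same ring, had 162, 173 and 137 CPM in DMSO and 127, 154 and 159 CPM in AA, a log2 change of -0.10 with an SE of 0.15 (adjusted p = 0.625). The groups of Psmc1 were apart and those of Psmc2 overlapped. The other 4 ATPase genes, Psmc3, Psmc4, Psmc5 and Psmc6, had log2 fold changes between 0.33 and 0.39 and adjusted p between 0.0552 and 0.126, and of these only Psmc6 overlapped between groups.

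The 2 large scaffold subunits of the base went apart. Psmd2, which also binds shuttle factors that bring ubiquitinated proteins, had 179, 181 and 162 CPM in DMSO and 274, 292 and 268 CPM in AA. Its log2 change was 0.67 with an SE of 0.12 (adjusted p = 0.00273), the smallest adjusted p of all 38 genes. Psmd1, the other scaffold, had 155, 127 and 118 CPM in DMSO and 133, 154 and 122 CPM in AA, a log2 change of 0.04 with an SE of 0.15 (adjusted p = 0.869). The log2 ratio of Psmd2 to Psmd1 was 0.21, 0.51 and 0.45 in DMSO and 1.04, 0.92 and 1.12 in AA, without overlap. That pair was picked after its values were seen, so the ratio is given without a test. Psmd4, a ubiquitin receptor of the base, had 69.5, 84.8 and 64.5 CPM in DMSO and 116, 109 and 99.6 CPM in AA, a log2 change of 0.57 with an SE of 0.14 (adjusted p = 0.0131), again with no overlap. In GRCm38 (GENCODE M21) both scaffold genes are on the plus strand, Psmd2 at chr16:20651652-20663414 and Psmd1 at chr1:86064387-86139151.

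Of the 8 lid genes, 3 rose (37.5%, against 22.3% of all tested genes). Psmd8, a structural subunit that completes the lid, had 69.7, 59.3 and 59.9 CPM in DMSO and 88.1, 122 and 108 CPM in AA, a log2 change of 0.73 with an SE of 0.15 (adjusted p = 0.00504). Psmd11, which joins the lid to the base and the core, had 104, 101 and 102 CPM in DMSO and 123, 154 and 148 CPM in AA, a log2 change of 0.46 with an SE of 0.13 (adjusted p = 0.0237). Both were higher in each AA library than in any DMSO library. Psmd7, the partner of the deubiquitinase Psmd14, went from 50.3 ± 2.90 to 65.4 ± 1.82 CPM (SD, n = 3 each), or 0.37 in log2 with an adjusted p of 0.0494, just under the threshold.

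The remaining 5 lid genes, Psmd3, Psmd6, Psmd12, Psmd13 and Psmd14, overlapped between groups. Psmd14, which cuts the ubiquitin chain off the substrate, had 48.2, 39.6 and 42.5 CPM in DMSO and 35.2, 56.9 and 42.5 CPM in AA, a log2 change of 0.02 with an SE of 0.18 (adjusted p = 0.939). Psmd3, the lowest of the lid, had 140, 170 and 145 CPM in DMSO and 140, 149 and 139 CPM in AA, a log2 change of -0.08 with an SE of 0.13. Psmd6, Psmd12 and Psmd13 had log2 fold changes of 0.01, 0.18 and 0.18. The subunit that carries the deubiquitinase activity was therefore not among the lid genes that rose.

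The chaperones that assemble the ATPase ring of the base, and are not part of the finished particle, spanned the whole range. Psmd10, gankyrin, which also binds MDM2, had 12, 13.8 and 12.1 CPM in DMSO and 18.4, 34.0 and 24.1 CPM in AA. Its log2 change of 0.92 with an SE of 0.22 (adjusted p = 0.0111) was the highest of the 38 genes, and 0.70 without AA replicate 2 (adjusted p = 0.0537). Psmd9 had 20.8, 25.1 and 22.7 CPM in DMSO and 19.5, 16.2 and 15.3 CPM in AA. It was the one member with every AA library below every DMSO library, with a log2 change of -0.41 with an SE of 0.18 (adjusted p = 0.100). Psmd9 did not pass as deposited, and passed as lower when library medians were equalised (-0.67, adjusted p = 0.0155). Psmd5 had a log2 change of 0.44 with an SE of 0.16 (adjusted p = 0.0605) and no overlap between groups. Psmd10 is at chrX:140948429-140956728, minus strand.

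Activators replace the regulatory particle at the ends of the core. Psme3, which forms the nuclear activator PA28-gamma and promotes ubiquitin-independent degradation of proteins such as p21, had 84.2, 83.7 and 92.2 CPM in DMSO and 126, 140 and 151 CPM in AA. Its log2 change was 0.67 with an SE of 0.13 (adjusted p = 0.00343) and its groups were well apart. Psme4, the large nuclear activator PA200, had 340, 225 and 278 CPM in DMSO and 273, 311 and 243 CPM in AA, a log2 change of -0.01 with an SE of 0.17 (adjusted p = 0.965). The log2 ratio of Psme3 to Psme4, a pair also picked after its values were seen, was -2.00, -1.41 and -1.58 in DMSO and -1.11, -1.15 and -0.69 in AA.

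Psme1 and Psme2 encode the partners of the mixed ring PA28-alpha-beta, which interferon induces. Psme1 had 20.7, 28.2 and 21.2 CPM in DMSO and 26.3, 38.2 and 37.3 CPM in AA, a log2 change of 0.51 with an SE of 0.20 (adjusted p = 0.0681). Psme2 had 22.1, 25.9 and 20.2 CPM in DMSO and 26.1, 35.6 and 28.9 CPM in AA, a log2 change of 0.39 with an SE of 0.18 (adjusted p = 0.118). Neither passed, and the groups of Psme2 were apart by a narrow margin. The log2 ratio of Psme1 to Psme2 lay between -0.09 and 0.36 over all 6 libraries and overlapped between groups.

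The calls differed in how well they held over 18 other analyses, which changed the scaling, filter, pseudocount or test, left out a library or joined copies of a gene. Psmd2 and Psmd8 passed in all 18, Psme3 in 17, Psmd4 and Psmd10 in 16 and Psma7 in 15. Psmb5 passed in 12, Psmd11 in 10, Psma1 in 9, Psmc1 in 8 and Psmd7 in 5. Without AA replicate 3, 6 members rose (background 14.3%), the calls of Psma1, Psmb5, Psmc1, Psmd7 and Psmd11 being lost, and without DMSO replicate 3, 7 rose (background 20.2%). Without DMSO replicate 2, Psma1, Psmc1 and Psmd7 were lost and Psmb3, Psmb6, Psmc3, Psmc4 and Psme1 passed. With no variance trend 6 members rose (background 20.4%) and with replicate number as a block 8 (background 19.3%). When library medians were equalised, only Psmd2, Psmd8, Psmd10 and Psme3 remained higher (4 genes, background 11.2%) and Psmd9 was lower (1 gene, background 16.9%). TMM factors gave the same 4 and 1 (background 13.5% and 14.4%), and Psmd9 was also lower after quantile normalization (background 14.5%). One of the 18 has a term that sets DMSO replicates 1 and 2 apart, the library-set term, which leaves AA against the single library DMSO replicate 3, assumed to vary like the others. There 5 members passed, Psma7, Psmb5, Psmd2, Psmd4 and Psmd8, where the background was 7.39%.

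A few near-identical copies of proteasome genes had unequal levels between libraries. Transcripts of 30 other genes matched 15 of the members at 90% identity or more over at least 300 bases, mostly processed pseudogenes. By symbol, 23 of these 30 were matched to rows of the table, and only 2, Gm13835 and Gm3375, exceeded 10 CPM in any library. Gm13835, identical to Psma3 over 665 bases, had 0.0837 and 0.707 CPM in DMSO replicates 1 and 2, 18.0 CPM in DMSO replicate 3, and 17.7, 18.1 and 28.4 CPM in AA. Gm3375, a pseudogene with 98.9% identity to Psmb5 over 796 bases, had 13.4, 14.9 and 11.5 CPM in DMSO and 18.7, 0.0561 and 0 CPM in AA. Psme2b, 99.4% identical to Psme2 over 794 bases, had 0.482 to 1.38 CPM in DMSO and 0.376, 3.37 and 3.52 CPM in AA. The division of reads between each pair is uncertain to that extent.

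Each member was therefore also tested with its copies summed. Psma3 then had 87.8, 66.4 and 79.6 CPM in DMSO and 79.6, 99.1 and 86.5 CPM in AA, and its log2 fold change turned from -0.09 to 0.18 (SE 0.15, adjusted p = 0.377). Psmb5 then had 84.1, 101 and 70.2 CPM in DMSO and 113, 118 and 110 CPM in AA, and its log2 fold change went from 0.59 to 0.43 (SE 0.15, adjusted p = 0.0494). Psme2 moved from 0.39 to 0.43 (adjusted p = 0.0931). The same 11 members passed with copies summed, where the background for higher genes was again 22.3%.

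**Figure D4:**
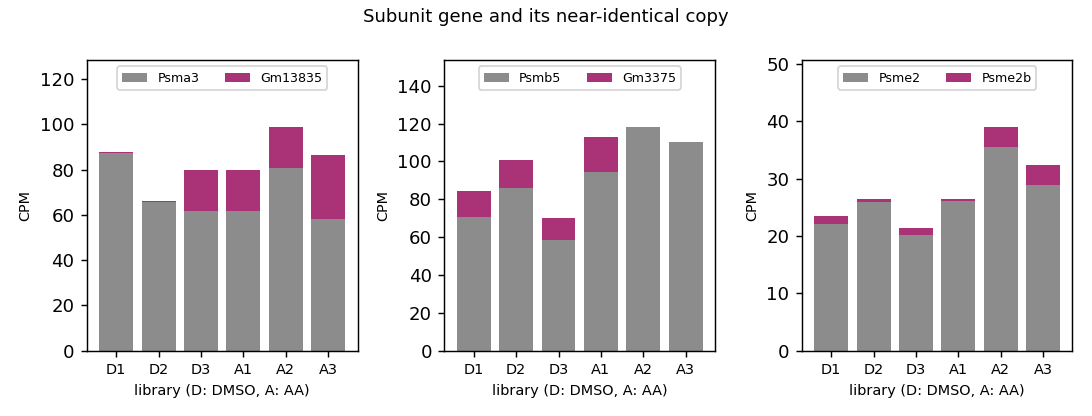
CPM (y axis from 0) of Psma3, Psmb5 and Psme2 in grey, with the CPM of a near-identical copy stacked in purple, in DMSO libraries D1 to D3 and AA libraries A1 to A3. Gm13835 is near 0 in D1 and D2 and at 17.7 to 28.4 CPM in the other 4 libraries, while Gm3375 is near 0 in A2 and A3.

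Levels were compared between genes after division by transcript length. In DMSO the mean level per kb of exonic length of the principal transcript (GENCODE M21) ran from 8.81 ± 0.840 CPM per kb for Psmd9 to 88.1 ± 10.4 for Psmc2 (SD, n = 3), a 10-fold range over the 38 genes. Among the subunits of core particle, base and lid, leaving out chaperones and activators, the lowest was Psma2 (14.8 CPM per kb) and the highest again Psmc2. Psmd9, Psmd10 (8.83 ± 0.720) and Psmd5 (10.8 ± 1.39), the assembly chaperones, were the lowest of all 38 by exonic length, and their ranges of mean ± SD overlapped. Within the core particle the range was 5.38-fold, from Psma2 (SD 2.39) to Psmb5 (79.7 ± 15.2), and within the lid it was 2.85-fold, from Psmd12 (24.8) to Psmd3 (70.6). With coding length in place of exonic length the range over all members was 6.30-fold, from Psmd10 to Psmb4, and Psma2 was no longer the lowest of the core particle, which was Psmb2. By coding length Psme1 (31.3), Psme2 (31.7) and Psmb2 (32.4 CPM per kb) also lay below the chaperone Psmd9 (34.3). The order of levels thus depends on which length is used. These data do not give which transcript ends the tubules use.

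In AA the same exonic levels ran from 6.54 ± 0.844 CPM per kb for Psmd9 to 119 ± 13.3 for Psmb5, an 18.2-fold range. With coding length it was 7.15-fold, from Psmd9 to Psme3. Psmd1 and Psmd2, which stood at 42.8 ± 6.08 and 58.8 ± 3.42 CPM per kb in DMSO, stood at 43.9 ± 5.25 and 93.8 ± 4.26 in AA. Levels of Psme1 and Psme2 per kb remained alike, at 21.0 and 23.6 in DMSO and 30.5 and 31.4 in AA.

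Immune core subunits, which replace the catalytic subunits under interferon, were rare and higher in AA. Psmb10, which takes the place of Psmb7, had 2.34, 3.89 and 2.63 CPM in DMSO and 6.39, 8.48 and 9.19 CPM in AA, a log2 change of 1.20 with an SE of 0.25 (adjusted p = 0.00573). Psmb8, the counterpart of Psmb5, had 2.64, 1.99 and 2.13 CPM in DMSO and 4.36, 4.88 and 5.82 CPM in AA, a log2 change of 0.89 with an SE of 0.24 (adjusted p = 0.0189). Psmb9, the counterpart of Psmb6, had 1.05, 2.06 and 0.815 CPM in DMSO and 2.18, 3.48 and 4.74 CPM in AA, a log2 change of 0.95 with an SE of 0.31 (adjusted p = 0.0407), from as few as 13 reads. All 3 were higher in every AA library. The call of Psmb9 was lost without DMSO replicate 1 or 3 or AA replicate 2 or 3 (adjusted p = 0.103 to 0.146), that of Psmb8 without AA replicate 2 or 3 (0.0615 and 0.0726), and those of Psmb8 and Psmb9 with library medians equalised (adjusted p = 0.0723 and 0.105), quantile normalization (0.121 and 0.124), no filter (0.0589 and 0.0937) and the library-set term (0.123 and 0.0884). Psmb9 was also lost with TMM factors (adjusted p = 0.0673) and voom (0.0570), while the call of Psmb10 held in each of the 18 analyses.

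Set against the constitutive counterpart within each library, the change was clearest for Psmb10. The log2 ratio of Psmb10 to Psmb7, on CPM + 1, went from -4.35 ± 0.35 to -3.23 ± 0.26 (SD, n = 3), a difference of 1.12 without overlap (exact two-sided permutation p = 0.10, adjusted over the 3 ratios 0.15). For Psmb9 to Psmb6 the difference was 0.58, with an exact permutation p of 0.10 (adjusted 0.15), and for Psmb8 to Psmb5 it was 0.30 with overlapping groups and an exact permutation p of 0.30 (adjusted 0.30). With 3 libraries against 3 the test cannot go below 0.10. With a pseudocount of 5 the differences were 0.63 for Psmb10 to Psmb7, 0.07 for Psmb9 to Psmb6 and -0.10 for Psmb8 to Psmb5. With a pseudocount of 0.1 they were 1.35, 1.00 and 0.53 in the same order. The size of each difference thus depended on the pseudocount. Leukocyte markers moved in part with the immune subunits: 3 of 6 tested rose, among them Cd68 (0.933 ± 0.484 to 28.4 ± 9.30 CPM), while Ptprc, present on all leukocytes, had 8.25 to 10.2 CPM in DMSO and 10.4 to 12.2 CPM in AA, and Cd3e was at or under 0.505 CPM in every library. The other 2 that rose were Lyz2 (1.13 to 2.3 CPM in DMSO, 3.09 to 9.32 CPM in AA) and Cd79a (0.128 to 0.251 CPM in DMSO, 1.13 to 3.02 CPM in AA). The summed level of all 7 markers was 175 to 266 CPM in DMSO and 159 to 214 CPM in AA, and most of it was Csf1r, with 159 to 253 CPM in DMSO and 111 to 172 CPM in AA. Their part in the immune subunit result was not tested.

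**Figure D5:**
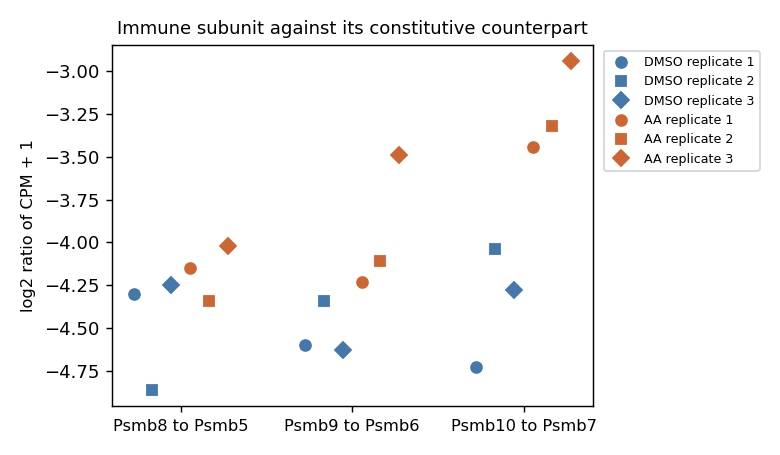
Log2 ratio of CPM + 1 of each immune subunit to its constitutive counterpart in each library (blue DMSO, orange AA; circle, square and diamond for replicates 1, 2 and 3). The AA libraries lie above all DMSO libraries for Psmb10 to Psmb7 and for Psmb9 to Psmb6, and overlap them for Psmb8 to Psmb5.

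Of the other genes of the pathway, 39 were tested over 7 lists, and 9 rose (23.1%, against 22.3% of all tested genes) and 1 fell. Among immune and tissue-specific core subunits 3 of 4 tested rose, all named above, and Psmb11, the thymus form, did not pass. Neither of the other regulatory subunits passed: Adrm1, a ubiquitin receptor, had a log2 fold change of 0.19, and Shfm1 one of 0.07. None of the 5 chaperones of core assembly passed, with log2 fold changes of 0.38 for Pomp, the maturation factor, and 0.17 for Psmg1. Assembly factors of the core therefore stood near the median of the members.

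Of 9 tested proteins that bind or regulate the particle, 2 rose (22.2%, against 22.3% of all tested genes), both zinc-finger genes induced by stress. Zfand5, which activates the particle, went from 56.1 ± 9.98 to 104 ± 9.54 CPM (SD, n = 3), a log2 change of 0.89 (adjusted p = 0.00238, and 0.0719 under the library-set term). Zfand2a, induced by arsenite, went from 15.4 ± 2.23 to 43.5 ± 15.3 CPM, a log2 change of 1.39 (adjusted p = 0.00210). The deubiquitinases Usp14 and Uchl5 had log2 fold changes of 0.23 and 0.64 and did not pass (adjusted p = 0.277 and 0.0517). Among 6 shuttle factors only Ubqln2 rose, from 50 ± 6.42 to 112 ± 4.06 CPM, a log2 change of 1.15 with an SE of 0.14 (adjusted p = 0.000219), whereas Ubqln1 and Rad23b had 0.11 and 0.20.

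Nfe2l1, the transcription factor that induces proteasome genes when the proteasome is inhibited, had 121, 146 and 127 CPM in DMSO and 184, 187 and 177 CPM in AA. Its log2 change was 0.48 with an SE of 0.13 (adjusted p = 0.0165), and the call was lost with library medians equalised (0.22, adjusted p = 0.217), TMM factors (0.27, adjusted p = 0.128) and the library-set term (adjusted p = 0.107), and without DMSO replicate 1 or AA replicate 2 (adjusted p = 0.0553 and 0.0636). Nfe2l2, its relative in the antioxidant response, went from 42.9 ± 4.22 to 139 ± 8.46 CPM, a log2 change of 1.68 with an SE of 0.13 (adjusted p = 1.82e-05). They were the 2 of 8 tested genes of this list that rose (25%, against 22.3% of all tested genes). The genes that process NFE2L1 protein did not pass: the protease Ddi2 had a log2 fold change of -0.04, the glycanase Ngly1 one of -0.29 and the segregase Vcp one of 0.16.

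Among the ubiquitin genes, Rps27a, which encodes ubiquitin fused to a ribosomal protein, had 107, 109 and 103 CPM in DMSO and 154, 175 and 151 CPM in AA, a log2 change of 0.58 with an SE of 0.13 (adjusted p = 0.00611). Its groups were well apart, and the call was lost with library medians equalised (0.32, adjusted p = 0.0831) and under the library-set term (adjusted p = 0.0585). Ubb, a polyubiquitin gene, had a log2 change of 0.41 (adjusted p = 0.0910) and did not pass, and the activating enzymes Uba1 and Uba6 had 0.29 and 0.32.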

How the data were processed

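Tubule RNA (PicoPure) went into TruSeq Stranded mRNA libraries, per the labels' protocols. The submitters' processing notes name bcl2fastq 2.19, kallisto and mm10; what each was used for, the annotation and the strand setting are not stated there. Per the file itself, the authors' deposited table gives log10 values for 6 libraries. The values themselves show them to be log10(CPM + 1): undone, each column sums to the CPM total and 100% of values are whole reads within 0.1 read.

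Values were turned back to CPM and logged as log2(CPM + 1). All genes reaching 1 CPM in 3 or more libraries were tested in all 6 libraries with limma 3.58.1 (R 4.3.3, variance trend), two-sided, with Benjamini-Hochberg adjustment at 0.05 over all of them. SE is the moderated standard error. The test was checked on simulated data. Copies were sought with blastn 2.17.0 in GENCODE M21 transcripts, matched by symbol. Of the pathway symbols, 5 were not matched, Sem1, Ecm29, Ecpas, Ufd1 and Paaf1. The lists hold some genes under an older and a newer symbol, so this counts symbols and not missing genes. Some genes of the lists enter the counts and are not reported here by name.

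The named genes were, in each sub-complex, those with the highest and lowest log2 fold change, the catalytic subunits, Psmd4, Psmd14, all activators, the immune subunits and Nfe2l1, and of each pathway list up to 4 called genes or the 2 highest; other names were added after their values were seen. The members, lists and tests were chosen with earlier results of these data known. Alternatives were 3 scalings, filters, pseudocounts, variance models, a replicate block, a library-set term, leaving out each library and, added after the data were seen, DMSO replicate 3 alone and summed copies. In all, 16 other rows have symbols beginning with Psm and belong to no sub-complex here.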

Additional observations from a re-analysis of the deposited data

How the results depend on the processing

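Equalising library medians left 4 members higher and 1 lower, 5 pathway genes higher and 4 lower, and the median log2 fold change was 0.08 for the core particle, 0.11 for the base, -0.08 for the lid and 0.19 for the activators. With TMM factors, 4 members were higher and 1 lower, 4 pathway genes were lower, and the medians were 0.14, 0.16, -0.03 and 0.25. After quantile normalization 1 member and 2 pathway genes were lower, with medians of 0.23 for the base, 0.01 for the lid and 0.22 for the activators. Without a variance trend 6 members were higher. The library-set term, in effect AA against the single library DMSO replicate 3, left 1481 genes in all, 5 members, and 4 pathway genes higher and 0 lower, with a base median of 0.50, as against DMSO replicate 3 alone (0.50). Leaving out single libraries gave 2484 to 3969 genes, 4 to 13 members higher, and 6 to 11 pathway genes higher and 0 to 1 lower. Members higher were 4 without AA replicate 2, 6 without AA replicate 3 and 7 without DMSO replicate 3 (background 12.2%, 14.3% and 20.2%). The 13 were without DMSO replicate 2, where 3671 genes passed in either direction. The share of all tested genes that rose is not given for the other left-out libraries, so the upper counts are not read against a background. Pathway genes that were lower numbered 0 with no filter and 0 with the replicate block. The block left 8 members higher. Libraries sharing a number did not deviate together (correlations -0.109, -0.156 and -0.0151 for numbers 1, 2 and 3), so the numbers were not taken as pairs.

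Some members that did not pass changed sign. In the order medians equalised, TMM and quantile, the log2 fold change was -0.18, -0.13 and -0.05 for Psmb7, -0.20, -0.15 and -0.08 for Psmb1, -0.22, -0.17 and -0.04 for Psmd1, and -0.24, -0.18 and -0.16 for Psmd14, while Psme4 was at 0.06 after quantile normalization. Psma3 was at 0.10 and Psmc2 at 0.09 with the library-set term and against DMSO replicate 3 (0.10 and 0.09), and Psma3 at 0.18 with copies summed. Over left-out libraries Psma3 ran from -0.23 to 0.06, Psme4 from -0.16 to 0.13, Psmd14 from -0.16 to 0.18, Psmb7 from -0.01 to 0.16, Psmd1 from -0.05 to 0.15 and Psmb1 from -0.02 to 0.15. With a pseudocount of 5 the difference in log2 ratio was -0.10 for Psmb8 to Psmb5 and 0.07 for Psmb9 to Psmb6. The length range was 6.30-fold with coding length, and TGACNNNGC followed by A was in 2 members' promoters. Why these values moved was not tested. Depth bears most on genes of few reads, such as Psmb9 (13 reads in its lowest library) and Psmb11 (32).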
